A study of Mus musculus with 24 samples.

Results

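Sterol synthesis, cholesterol efflux and fatty acid genes were followed as a set of 36 genes, taken by gene symbol from the deposited expression files. All 36 were listed in every library, among 17109 genes listed under both stimuli and 18740 listed under either. They comprised 19 sterol synthesis enzymes, 5 sterol regulators or carriers, 4 genes of LXRα and its targets, and 8 fatty acid genes. The libraries were RNA-seq profiles of bone marrow-derived macrophages (BMDMs) from C57BL/6 mice aged 10 weeks, either wild type (WT) or lacking the D5 dopamine receptor (DRD5-/-, labelled DRD5 KO). BMDMs are macrophages grown from marrow in culture, here in medium conditioned by L929 cells. M1 BMDMs were stimulated with LPS at 100 ng/ml and IFN-γ at 50 ng/ml, and M2 BMDMs with IL-4 and IL-13 at 10 ng/ml each, for 12 h. Each genotype and stimulus was profiled without dopamine (DA) and with DA, whose dose the labels do not give. This made 8 groups of 3 libraries, 24 in all. The labels do not say whether the 3 libraries of a group came from separate mice or cultures, so the p-values below measure only the spread between these samples. The tissue label reads bone, whereas the growth protocol names colons as the source, and the methods name leg bones.

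Cells make cholesterol from acetyl-CoA through mevalonate, farnesyl diphosphate, squalene and lanosterol, and the same farnesyl diphosphate also feeds protein prenylation. The transcription factor SREBP2 (Srebf2) drives these enzymes when sterols in the endoplasmic reticulum run low. Scap carries it out of the endoplasmic reticulum, and Insig1 holds it there when sterols are plentiful. The nuclear receptor LXRα (Nr1h3) responds to oxysterols and raises Abca1 and Abcg1, the transporters that export cholesterol to lipoproteins, and Mylip, a ubiquitin ligase that limits cholesterol uptake. SREBP1 (Srebf1) and LXR both drive fatty acid synthesis. Macrophages take up cholesterol from dead cells and lipoproteins and are known for using the LXR branch to export it.

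Promoter stretches are shown for a few members whose changes are set side by side below. RefSeq windows on GRCm38.p6, running from 250 bases before to 50 bases after each annotated start, were available for 28 of the 36 members. Fdps, Fdft1, Sqle, Stard4, Abcg1, Scd1, Scd2 and Fads1 were not among them. The sterol regulatory element searched, TCACNCCAC on either strand, was in the windows of 388 of 27025 genes (1.44%) and of 1 member, Hmgcs1. It began 137 bases before the start and is shown within chr13:119690169-119690267 (plus strand), together with a CCAAT box in reverse. Capitals mark the motifs here and below.
Hmgcs1: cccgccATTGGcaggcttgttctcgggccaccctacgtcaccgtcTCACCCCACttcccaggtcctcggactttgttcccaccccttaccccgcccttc

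The CCAAT box, which is bound by NF-Y, a partner of SREBP2 at sterol genes, was found on either strand in 15 of 16 enzymes with a window, all but Acat2. It was in 41.1% of all genes. It also lay in 3 of 4 regulators, 1 of 3 LXR genes and 2 of 5 fatty acid genes with a window. Cyp51, Msmo1, Hsd17b7 and Idi1 are shown for their changes with DA in WT cells, given below. Of the tested enzymes with a window, Cyp51 and Msmo1 changed most in M1, and Hsd17b7 and Idi1 in M2. The stretches are chr5:4104712-4104736 (minus strand), chr8:64733619-64733643 (minus), chr1:169969206-169969227 (minus) and chr13:8885582-8885605 (plus), read along the gene. That of Hsd17b7 lies before an annotated start of the gene but after its outermost one, at chr1:169969242. ATTGG is CCAAT on the opposite strand.
Cyp51: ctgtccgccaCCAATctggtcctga
Msmo1: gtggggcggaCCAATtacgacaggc
Hsd17b7: ccgagccttgATTGGtcgaggt
Idi1: ccaaggtgccATTGGctggcgacc

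LXR binds direct repeats spaced by 4 bases, and these were searched on either strand. The first, AGGTCA written once and again on the same strand with 4 bases between, lay in the windows of 4 genes, none of them a member. A variant repeat, GGTTA followed after 4 bases by CGGTCA, has other bases and does not include the first. The variant was chosen after the members' windows had been read, so its presence in them is a description only. It lay in the windows of 4 genes, of which 3 were members: Abca1, Fasn and Srebf1. The stretches below are chr4:53159941-53159969, chr11:120824751-120824779 and chr11:60210632-60210660, all on the minus strand and read along the gene, so the capitals show the repeat in reverse. These stretches lie before an annotated start of the gene but after its outermost one, at chr4:53159988, chr11:120825166 and chr11:60224186. They are set side by side because these 3 genes moved differently with DA in M2 WT BMDMs, as described below.
Abca1: cagcgttTGACCGGTAGTAACCccggcgc
Fasn: gccacgaTGACCGGTAGTAACCccgcctg
Srebf1: acgacagTGACCGCCAGTAACCccagcgc

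Expression was deposited as FPKM (fragments mapped to a transcript, scaled by its length and by the fragments mapped in the library), so levels can be compared between genes, whereas the number of reads behind a value is unknown. Between 9774 and 10444 genes reached 1 FPKM in a library, and no pair of libraries held the same values. Macrophage markers such as Adgre1 (411 to 602 FPKM) and Csf1r (294 to 997 FPKM) were high throughout, and Nos2 was at 1669 FPKM or more in M1 and at 0.33 FPKM or less in M2. Drd5 was not listed in the M1 files and stood at 0 in 10 of 12 M2 libraries, with a highest value of 0.06 FPKM, so the genotype could not be checked on it. In bulk RNA, fewer cells of a type and less RNA per cell cannot be told apart. The M1 and M2 files were made as separate sets, so stimulus and set cannot be told apart in the levels.

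The summed level of the 19 sterol enzymes was higher with DA in WT BMDMs of both stimuli, with no overlap between libraries. In M1, the sum was 135 to 138 FPKM in untreated WT and 189.9 to 194 FPKM in DA-treated WT. DRD5-/- libraries held 132 to 136 FPKM without DA and 131 to 133 FPKM with it, so their ranges overlapped. In M2, the sum was 268 to 273 FPKM in WT and 350.4 to 356 FPKM with DA. In DRD5-/- it was 233 to 239 FPKM without DA and 229 to 240.2 FPKM with DA. The LXR genes took another course, since their sum in DA-treated WT M2 libraries lay below that of all other M2 groups.

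**Figure D1:**
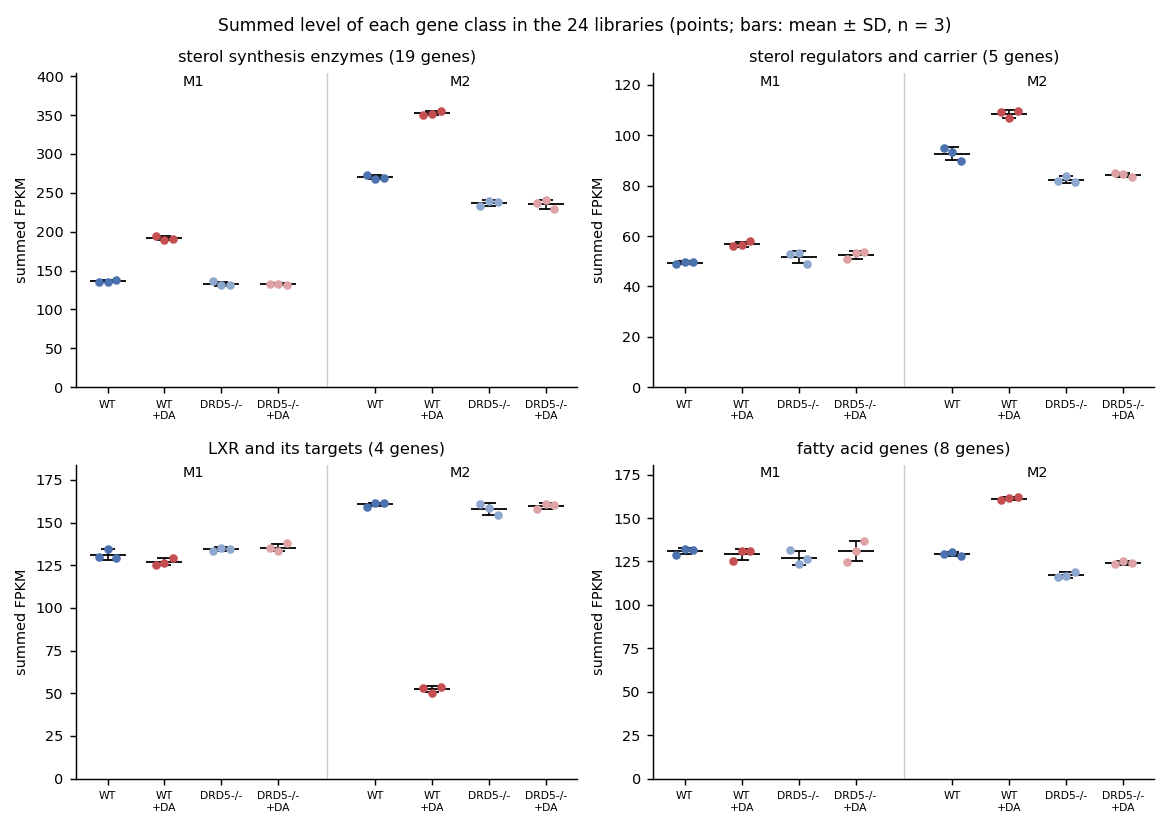
Summed FPKM of each gene class (vertical axis) in each of the 24 libraries (points), by genotype, DA and stimulus, with the mean and SD of the 3 libraries of a group as bars. The enzyme sum is highest in DA-treated WT cells of either stimulus, 189.9 to 194 FPKM in M1 and 350.4 to 356 FPKM in M2, and the LXR sum is 50.3 to 53.6 FPKM in DA-treated WT M2 against 154 to 161 FPKM in the other M2 groups.

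The first question was which genes changed with DA in M1 WT BMDMs. A gene was tested where 3 or more of the 12 libraries sharing a stimulus reached 1 FPKM, and was called where limma gave a Benjamini-Hochberg adjusted p under 0.001 over all tested genes and the change was at least 1.2-fold on the log2(FPKM + 1) scale. Of 18 enzymes tested (Idi1, at 1.81 FPKM or less, was not), 10 rose and none fell, with a median change of 0.35 log2. Over all 10040 genes tested, 4.73% rose and 9.6% fell, and the median was −0.07. With another scaling of the libraries, by the median of their ratios, 676 genes rose and 549 fell, in place of 475 and 964.

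Of the mevalonate steps, 1 gene was called. This was Hmgcs1, the synthase that makes HMG-CoA, at 9.73, 9.61 and 10.2 FPKM in untreated and 12.8, 12.8 and 13.2 FPKM in DA-treated libraries. All treated libraries lay above the untreated ones, and the gene rose by 0.36 ± 0.05 log2 (SE). Mvd, the mevalonate diphosphate decarboxylase, changed by 0.27 ± 0.07 log2 (adjusted p = 0.0047, limma), and Acat2, Mvk, Pmvk and Ggps1 changed by −0.02 to 0.16 log2, none of them called. Acat2 is the thiolase of the first step, Mvk and Pmvk are the kinases of mevalonate, and Ggps1 diverts farnesyl diphosphate to prenylation.

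The other 9 rises were in steps from farnesyl diphosphate synthase onward. Fdps, farnesyl diphosphate synthase, was at 13.1, 13.8 and 12.2 FPKM in untreated and 24.6, 25.8 and 25.1 FPKM in DA-treated M1 WT cells. It rose by 0.90 ± 0.05 log2 (adjusted p = 5.4e-09, limma), with a wide gap between the groups. Cyp51, the lanosterol demethylase, went from 2.43, 2.13 and 2.73 FPKM to 5.57, 5.44 and 5.11 FPKM. Its change of 0.90 ± 0.09 log2 understates the ratio of the mean FPKM, 2.21, because 1 was added before taking logs. Msmo1, the methyl sterol oxidase and the most abundant of the 19 sterol enzymes in untreated M1 WT cells, was at 23.5, 23.95 and 25.9 FPKM without and 43.6, 42.4 and 40.9 FPKM with DA. It rose by 0.77 ± 0.04 log2 (adjusted p = 3.7e-09, limma), without overlap.

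Squalene synthase (Fdft1) and squalene epoxidase (Sqle), the enzymes that commit the pathway to sterols, rose by 0.52 ± 0.06 and 0.50 ± 0.06 log2. Fdft1 overlaps the cathepsin gene Ctsb in the annotation, and whether counting used the strand is not stated. Hsd17b7, a sterol ketoreductase, rose by 0.41 ± 0.07 log2 from a low level, 1.07 to 1.36 FPKM. The reductase Tm7sf2, which overlaps Vps51, rose by 0.39 ± 0.07, the desaturase Sc5d by 0.37 ± 0.06 and the isomerase Ebp by 0.29 ± 0.06 log2. Nsdhl, the sterol decarboxylase, changed by 0.35 ± 0.08 (adjusted p = 0.0018, limma) and was not called. Lss, which makes lanosterol, and Dhcr7, a reductase of the final step, changed by 0.14 ± 0.07 and 0.17 ± 0.07 log2, also not called.

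Several of these calls were lost when 1 library was left out. Ebp lost its call when any 1 of 9 libraries was left out, Hsd17b7 and Tm7sf2 when any 1 of 5 was, and Sc5d when any 1 of 3 was. The number of members called in M1 WT cells was 14 with all libraries, 9 without untreated WT replicate 1, 8 without DA-treated WT replicate 1 and 9 without DA-treated WT replicate 3. Fdps, Cyp51, Msmo1, Fdft1, Sqle and Hmgcs1 kept their calls in each of the 12 fits.

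In DRD5-/- M1 BMDMs, no member was called with DA, and 0.0% of the 10040 genes were, although 569 had an unadjusted p under 0.05, 1 of them a member (Scap). The 18 enzymes ranged from −0.14 to 0.09 log2. Fdps, for example, was at 12.0, 10.6 and 11.6 FPKM without and 11.5, 11.6 and 10.8 FPKM with DA, a change of −0.01 ± 0.05. DA-treated WT cells stood above DA-treated DRD5-/- cells for 10 of 18 enzymes and for 13 of the 33 members tested, with 1 member lower (Nr1h3). Over all genes 5.95% were higher and 12.6% lower in that comparison, and with the other scaling 866 were higher and 803 lower, in place of 597 and 1264. The difference between the changes in the 2 genotypes was itself called for 5 enzymes: Cyp51 (0.92 ± 0.13 log2), Fdps (0.91 ± 0.07), Msmo1 (0.81 ± 0.06), Fdft1 (0.59 ± 0.08) and Sqle (0.49 ± 0.08). With Srebf2 and Mylip this made 7 members, all with the larger change in WT, against 3.2% of all genes in that direction and 5.18% in the other. The other scaling gave 448 and 266 genes in place of 321 and 520. Without untreated WT replicate 1, 4 members were called in place of 7, and the calls of Mylip and Sqle were lost in 8 and 7 of the 12 fits that left out 1 library.

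**Figure D2:**
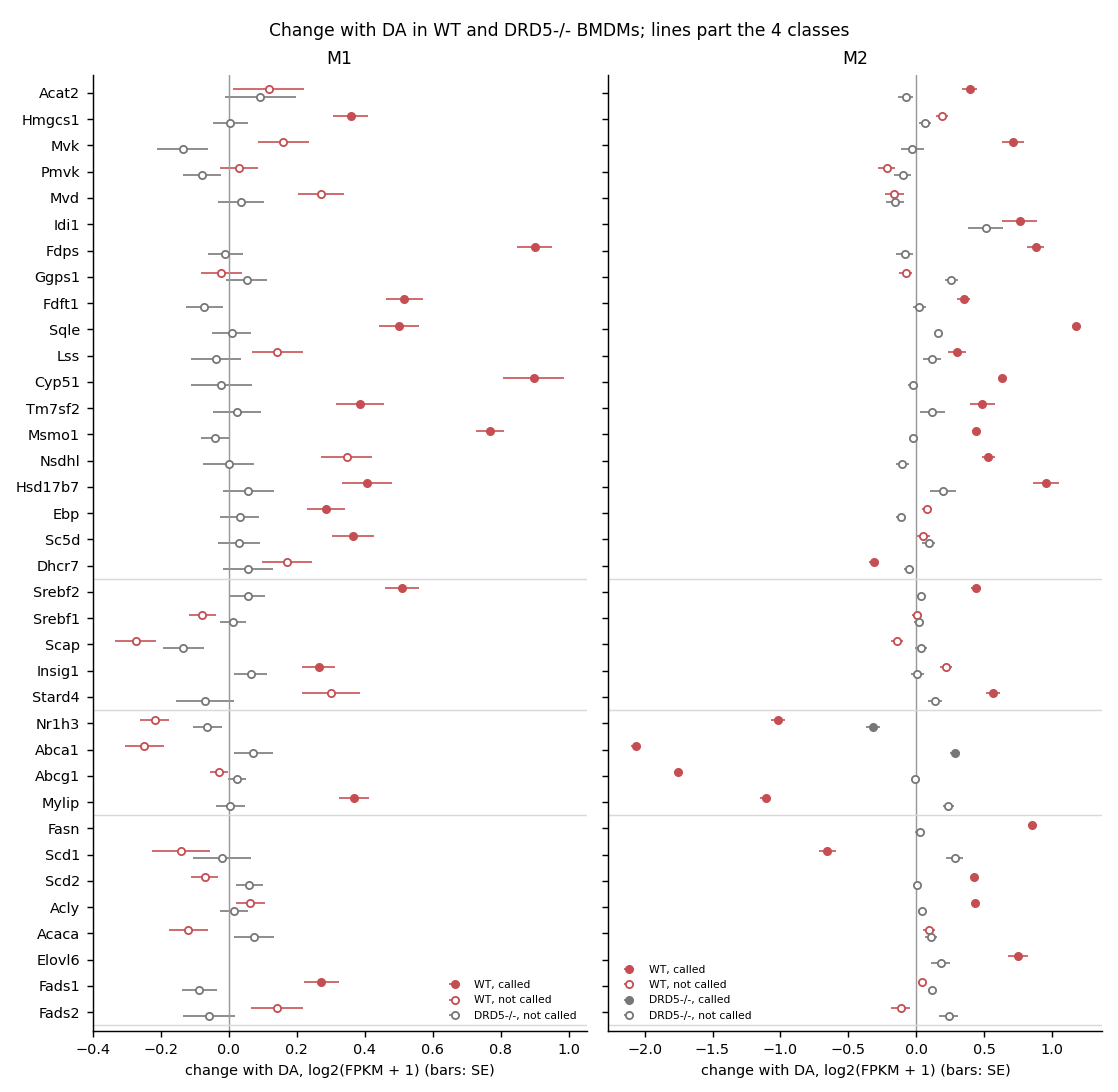
Change with DA on the log2(FPKM + 1) scale (horizontal axis, bars showing the SE; the scales of the M1 and M2 panels differ) for each member in WT (red) and DRD5-/- (grey) BMDMs, with filled points for called changes. In M1 the WT points of the enzymes reach 0.90 while the DRD5-/- points stay between −0.14 and 0.09, and in M2 the LXR genes lie from −2.06 to −1.02 in WT. Genes without a point in M1 (Idi1, Fasn, Elovl6) were not tested there.

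In M2 WT BMDMs, 12 of 19 enzymes rose with DA and 1 fell, against 25.9% of the 10735 genes that rose and 20.4% that fell. With the other scaling of the libraries, 2442 genes rose and 2483 fell, in place of 2782 and 2189. The median enzyme changed by 0.39 log2, and the median gene by 0.03. The largest rise was that of Sqle, at 13.0, 12.8 and 13.0 FPKM without and 31.1, 29.6 and 30.7 FPKM with DA. The libraries lay far apart, and the change was 1.18 ± 0.03 log2 (adjusted p = 2.9e-13, limma). Hsd17b7 rose from 2.10, 2.14 and 2.19 FPKM to 5.15, 5.52 and 4.66 FPKM, a ratio of 2.38 between the means. Fdps rose from 27.9, 24.8 and 26.5 FPKM to 50.3, 47.5 and 50.6 FPKM, or by 0.88 ± 0.06 log2. In both genes every treated library exceeded every untreated one.

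Unlike in M1, the mevalonate kinase Mvk was among the genes called, at 4.44, 3.88 and 3.81 FPKM without and 6.60, 7.63 and 7.57 FPKM with DA (0.71 ± 0.08 log2). Idi1, which isomerises isopentenyl diphosphate, rose by 0.76 ± 0.13 log2, from 2.84 to 3.53 FPKM to between 4.63 and 6.67 FPKM. The other rises were Cyp51 (0.63 ± 0.03), Nsdhl (0.53 ± 0.05), Tm7sf2 (0.49 ± 0.09), Msmo1 (0.44 ± 0.03), Acat2 (0.39 ± 0.05), Fdft1 (0.35 ± 0.05) and Lss (0.30 ± 0.07 log2). Lss was called by a narrow margin (adjusted p = 0.00093, limma) and lost its call when any 1 of 10 of the 12 libraries was left out.

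Dhcr7 went the other way. It stood at 28.9, 28.9 and 27.1 FPKM in untreated and 22.2, 22.5 and 23.2 FPKM in DA-treated M2 WT cells, and fell (−0.31 ± 0.04 log2, adjusted p = 6.3e-06, limma). The ranges did not overlap. Hmgcs1, which had risen in M1, changed by 0.19 ± 0.04 log2 and was not called, and neither were Pmvk (−0.22 ± 0.06), Mvd (−0.16 ± 0.07), Ggps1, Ebp and Sc5d. The enzymes that rose under both stimuli numbered 7, of the 10 in M1 and the 12 in M2: Fdps, Fdft1, Sqle, Cyp51, Tm7sf2, Msmo1 and Hsd17b7. The share of all genes that rose under both was not counted. It can be no more than the 4.73% of genes tested in M1 that rose there. Tm7sf2 and Hsd17b7 each lost the M1 call when any 1 of 5 libraries was left out, and Tm7sf2 lost the M2 call with any 1 of 3.

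In DRD5-/- M2 BMDMs, none of the 19 enzymes was called with DA, and 4.02% of all genes were. Sqle, at 8.70, 8.77 and 8.72 FPKM without and 9.90, 9.89 and 9.89 FPKM with DA, did not overlap between groups, yet its change of 0.16 ± 0.03 log2 was under 1.2-fold. Idi1 changed by 0.51 ± 0.13 log2 (adjusted p = 0.0077, limma). Set against DRD5-/- cells under DA, WT cells under DA had 19 of 36 members higher and 4 lower, against 29.2% and 20.4% of all genes. Of the 19 enzymes 12 were among those higher, from Sqle with a ratio of 3.08 to Tm7sf2 with 1.46 (a call lost in 5 of the 12 fits that left out 1 library). The difference between genotypes in the change with DA was called for 9 enzymes with the larger change in WT, led by Sqle (1.01 ± 0.04), Fdps (0.97 ± 0.09), Hsd17b7 (0.76 ± 0.13) and Mvk (0.74 ± 0.12 log2), and for Ggps1 in the other direction (−0.34 ± 0.07, a call lost in 8 of the 12 fits that left out 1 library). Over all genes, 22.8% and 20.4% were called in these directions. With the other scaling these were 2283 and 2318 genes, in place of 2448 and 2188. For DA-treated WT against DA-treated DRD5-/- cells that scaling gave 2646 genes higher and 2639 lower, in place of 3139 and 2194.

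Among the regulators, Srebf2 rose under both stimuli. It was at 12.6, 13.4 and 12.9 FPKM without and 18.1, 18.8 and 19.8 FPKM with DA in M1 WT cells (0.51 ± 0.05 log2), and at 31.8, 33.0 and 29.9 FPKM without and 44.5, 41.9 and 43.1 FPKM with DA in M2 WT cells (0.44 ± 0.04). In DRD5-/- cells it changed by 0.05 ± 0.05 and 0.03 ± 0.04 log2, and the difference between genotypes was called in M1 (0.45 ± 0.07) and M2 (0.41 ± 0.05). Insig1, itself a target of SREBP2, rose in M1 by 0.26 ± 0.05 log2, from 10.97 to 11.8 FPKM to between 13.5 and 14.3 FPKM, a call lost when any 1 of 5 libraries was left out. In M2 it changed by 0.22 ± 0.05, under 1.2-fold. Stard4, a carrier that moves cholesterol between membranes, rose in M2 from 4.09, 4.5 and 4.04 FPKM to 6.94, 6.27 and 6.97 FPKM (0.57 ± 0.05 log2), and changed by 0.30 ± 0.09 in M1 (adjusted p = 0.011, limma). The escort Scap was not called under either stimulus (−0.27 ± 0.06 in M1, −0.14 ± 0.04 in M2).

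Srebf1, the gene of SREBP1, changed by −0.08 ± 0.04 log2 in M1 and by 0.00 ± 0.04 in M2 WT cells. Its M2 libraries held 18.1, 17.7 and 17.3 FPKM without and 18.2, 17.3 and 17.7 FPKM with DA, with overlapping ranges. It shares annotated bases with Rai1, and FPKM per gene does not part its transcripts, which begin at different promoters.

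All 4 LXR genes fell with DA in M2 WT BMDMs, against 20.4% of all genes, and their median change was −1.43 log2. Abca1, which exports cholesterol to lipid-poor apolipoprotein, was at 12.7, 12.6 and 13.6 FPKM without and 2.33, 2.36 and 2.33 FPKM with DA. No library came near the other group, and the gene fell (−2.06 ± 0.04 log2, adjusted p = 7.2e-15, limma), leaving 0.18 of the untreated mean. Abcg1, which exports cholesterol to mature lipoprotein, was at 103, 104 and 103 FPKM without and 30.3, 29.1 and 30.4 FPKM with DA, a change of −1.76 ± 0.02 log2. Mylip, the ubiquitin ligase, fell from 25.0, 25.4 and 23.8 FPKM to 11.5, 10.2 and 11.1 FPKM (−1.11 ± 0.04), and Nr1h3 from 18.6, 19.4 and 20.4 FPKM to 8.99, 8.61 and 9.74 FPKM (−1.02 ± 0.05). The annotation of Nr1h3 overlaps Acp2.

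In DRD5-/- M2 cells the same 4 genes did not move together: 1 rose, 1 fell and 2 were not called, against 4.02% of all genes called. Abca1 was at 13.1, 13.2 and 12.7 FPKM without and 16.2, 15.9 and 16.0 FPKM with DA, and rose by 0.28 ± 0.04 log2 (adjusted p = 0.0001, limma). Nr1h3 was at 26.6, 27.3 and 25.4 FPKM without and 19.6, 21.7 and 21.6 FPKM with DA, and fell (−0.32 ± 0.05 log2, adjusted p = 0.00043, limma). The fall of Nr1h3 was no longer called when any 1 of 5 libraries was left out. Mylip changed by 0.24 ± 0.04 and Abcg1 by −0.01 ± 0.02 log2, neither called. The difference between genotypes was called for all 4, at −2.35 ± 0.05 for Abca1, −1.74 ± 0.04 for Abcg1, −1.35 ± 0.06 for Mylip and −0.70 ± 0.07 for Nr1h3. Of all genes, 20.4% were called in this direction.

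M1 BMDMs showed a different picture for the LXR genes. In WT cells Mylip rose with DA, from 15.1, 16.9 and 15.7 FPKM to 19.98, 21.0 and 21.5 FPKM (0.37 ± 0.04 log2, adjusted p = 8.3e-06, limma). It was called higher in M1 and lower in M2. Abca1 was at 22.4, 22.6 and 23.1 FPKM without and 18.9, 19.4 and 18.4 FPKM with DA, without overlap, but its change of −0.25 ± 0.06 was not called (adjusted p = 0.0024, limma). Nr1h3 changed by −0.22 ± 0.04, under 1.2-fold, and Abcg1 by −0.03 ± 0.03 log2. In DRD5-/- M1 cells the 4 genes ranged from −0.06 to 0.07 log2.

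**Figure D3:**
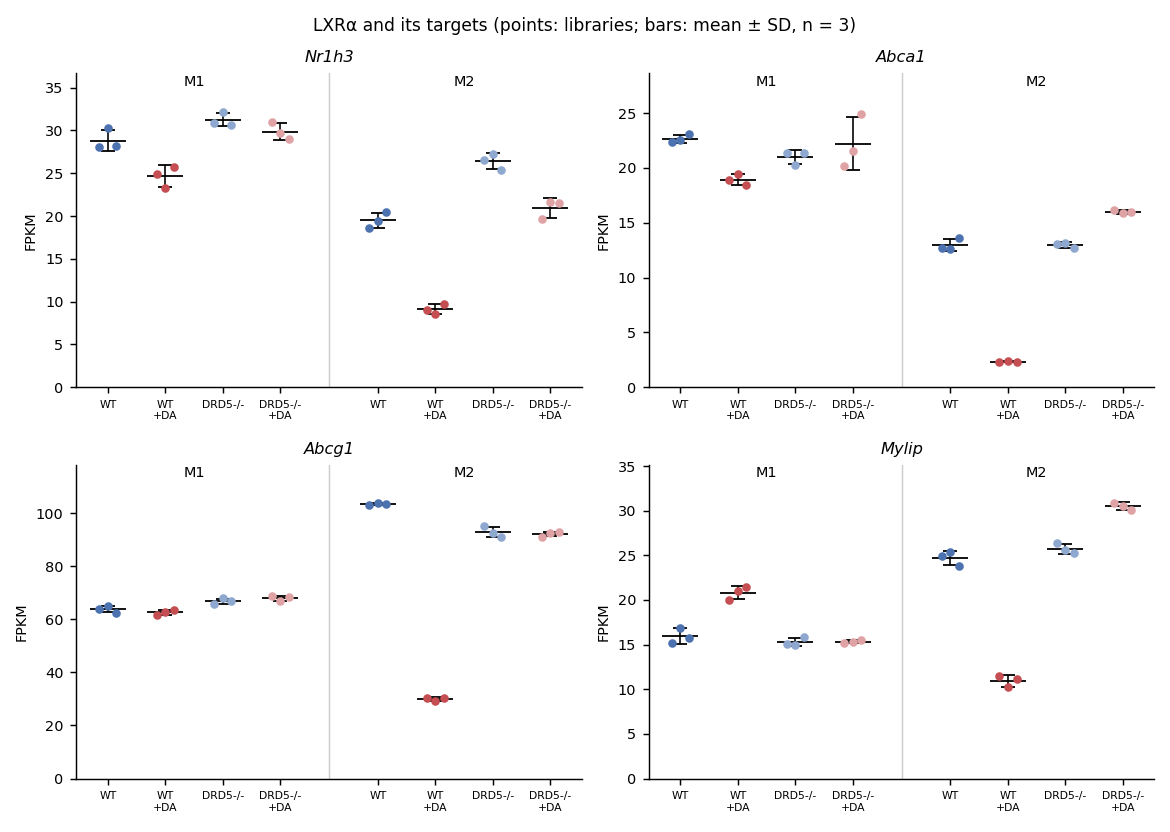
FPKM (vertical axes, from 0) of Nr1h3, Abca1, Abcg1 and Mylip in each library (points) of the 8 groups, with the mean and SD of 3 libraries. DA-treated WT M2 libraries are the lowest of the M2 groups for all 4 genes, at 2.33 to 2.36 FPKM for Abca1 and 29.1 to 30.4 FPKM for Abcg1, while in M1 the DA-treated WT libraries are the highest group for Mylip.

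Fatty acid genes were split in M2 WT BMDMs: 4 of 8 rose with DA, 1 fell and 3 were not called, against 25.9% of all genes that rose and 20.4% that fell. Fasn, the fatty acid synthase, was at 11.1, 11.1 and 10.7 FPKM without and 20.5, 20.7 and 20.6 FPKM with DA, a rise of 0.86 ± 0.04 log2 (adjusted p = 3.8e-11, limma). Elovl6, which lengthens palmitate, rose from 0.97, 1.24 and 1.01 FPKM to 2.66, 2.31 and 2.49 FPKM (0.75 ± 0.07), although its untreated level was near the filter of 1 FPKM. Acly, which supplies acetyl-CoA from citrate, rose by 0.43 ± 0.03 log2, from 36.02 to 36.8 FPKM to between 48.7 and 50.8 FPKM. The carboxylase Acaca, of the committed step, changed by 0.10 ± 0.04 and was not called, and its annotation overlaps Tada2a.

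The stearoyl-CoA desaturases Scd1 and Scd2 moved in opposite directions. Scd1 was at 7.29, 6.76 and 6.12 FPKM without and 4.05, 3.57 and 4.09 FPKM with DA, and fell (−0.65 ± 0.06 log2, adjusted p = 2.9e-07, limma). Scd2 was at 27.4, 26.7 and 27.2 FPKM without and 36.4, 36.8 and 36.8 FPKM with DA, and rose by 0.42 ± 0.03. Neither gene's libraries overlapped between groups. They are close paralogs, and how reads shared between them were assigned is not given in the sources used here. The polyunsaturated fatty acid desaturases Fads1 and Fads2 changed by 0.04 ± 0.03 and −0.11 ± 0.07 log2, neither called. In relation to the promoter stretches above, Abca1 fell, Fasn rose and Srebf1 was not called, while all 3 windows held the variant repeat. That repeat was chosen after these windows had been read, and binding of LXR to it was not tested.

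In M1 WT cells, 1 of the 6 fatty acid genes tested rose (4.73% of all genes did), Fads1, from 5.81, 6.44 and 5.98 FPKM to 7.87, 7.29 and 7.47 FPKM (0.27 ± 0.05 log2, adjusted p = 0.00065, limma). That call was lost when any 1 of 7 libraries was left out. Fasn (0.48 to 0.72 FPKM in all M1 libraries) and Elovl6 (0.05 to 0.12 FPKM) were below the filter. In DRD5-/- cells no fatty acid gene was called with DA under either stimulus, against 0.0% of all genes in M1 and 4.02% in M2. The 8 genes changed by 0.005 to 0.28 log2 in DRD5-/- M2 cells. Of these, 5 had an unadjusted p under 0.05 (limma), as did 4570 of all 10735 genes. Scd1 was at 3.54 to 3.89 FPKM without and 4.56 to 4.76 FPKM with DA in those cells. The difference between genotypes was called in M2 for Fasn (0.83 ± 0.05), Elovl6 (0.57 ± 0.10), Scd2 (0.42 ± 0.04) and Acly (0.39 ± 0.04 log2), and for Scd1 in the other direction (−0.94 ± 0.09). Of all genes, 22.8% and 20.4% were called in these directions.

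**Figure D4:**
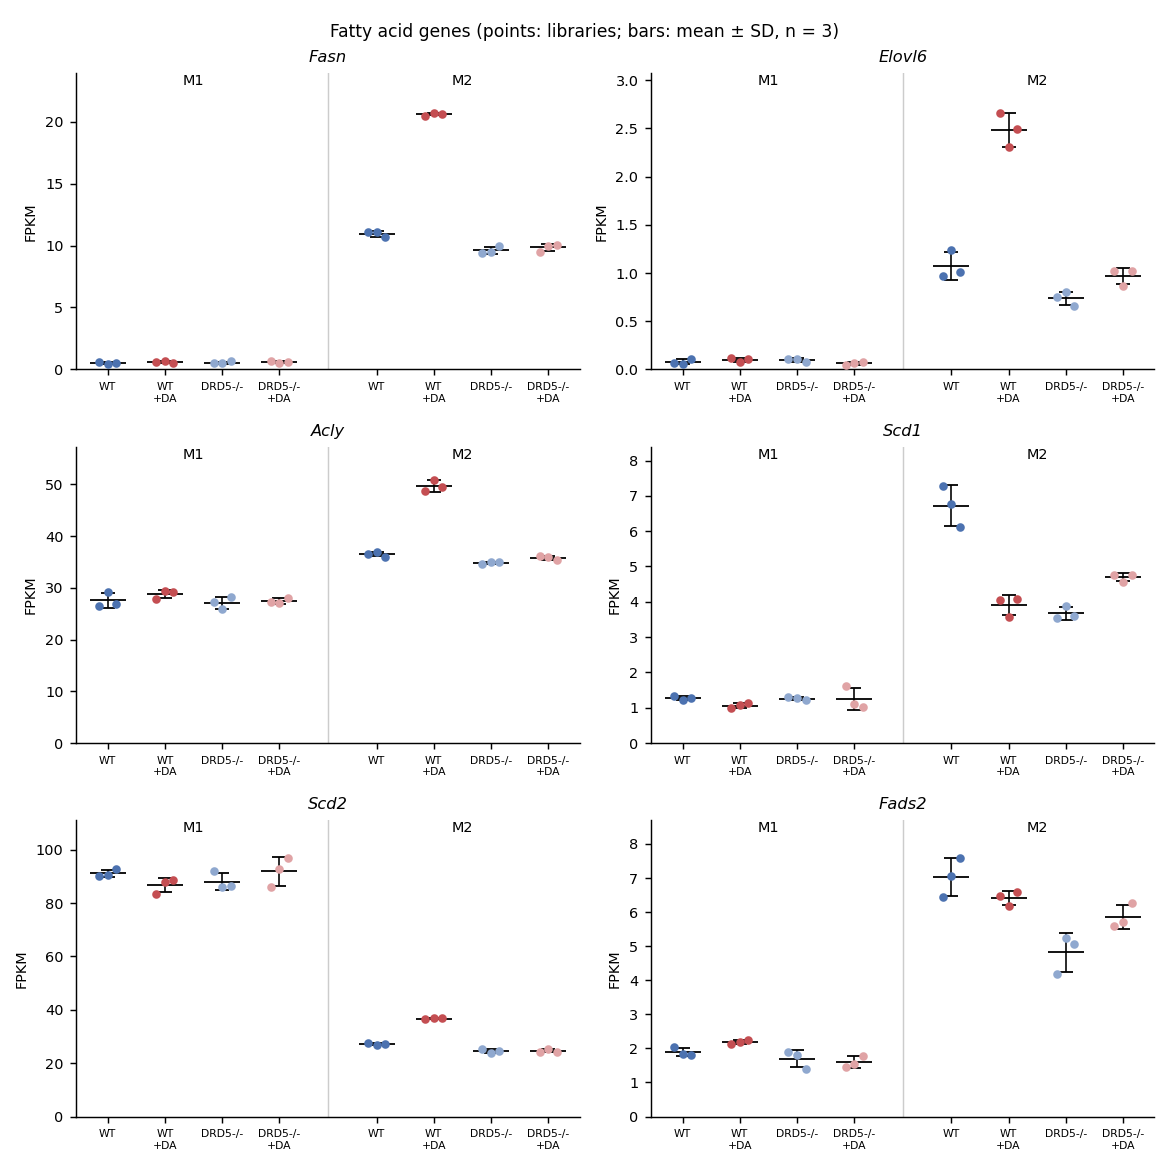
FPKM (vertical axes, from 0) of 6 fatty acid genes in each library (points) of the 8 groups, with the mean and SD of 3 libraries. In M2, Fasn stands at 20.5 to 20.7 FPKM in DA-treated WT and at 9.40 to 11.1 FPKM in the other groups, whereas Scd1 is highest in untreated WT, at 6.12 to 7.29 FPKM.

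Sums of marker genes also differed with DA. That of 6 M2 markers was 499 to 514.5 FPKM without and 1219 to 1238 FPKM with DA in M2 WT cells. In DRD5-/- M2 cells it was 426 to 434 FPKM without and 467 to 478 FPKM with DA. In M1 it was 79.9 to 81.3 FPKM without and 198 to 207 FPKM with DA in WT cells. DRD5-/- M1 cells held 75.6 to 78.5 FPKM without and 71.3 to 74.8 FPKM with DA. Of these markers, Arg1 ranged from 27.8 to 600 FPKM and Mrc1 from 245 to 541 FPKM over the 12 M2 libraries. In the 12 M1 libraries Arg1 ranged from 56.9 to 185 FPKM and Mrc1 from 10.4 to 19.3 FPKM. Chil3, Retnla, Ccl24 and Pdcd1lg2 were at 1.99 FPKM or less there. The sum of 6 M1 markers in M1 WT cells was 6620 to 6731 FPKM without and 6537 to 6562 FPKM with DA. In M2 WT cells the sum of 8 macrophage markers was 10779 to 10951 FPKM without and 8472 to 8510 FPKM with DA, and in DRD5-/- M2 cells 10938 to 11389 FPKM with DA. Lyz2 held the largest part of this sum, at 4733 to 7337 FPKM over the 12 M2 libraries. Cd68 ranged from 2137 to 2470 FPKM over these libraries, and Adgre1 from 411 to 457 FPKM. The sum of 4 adipocyte markers, nearly all of it the fat cell hormone Adipoq, was 3.82 to 4.54 FPKM without and 0.11 to 0.28 FPKM with DA in M2 WT cells, and in DRD5-/- cells 4.94 to 5.90 FPKM without and 3.18 to 3.31 FPKM with DA. Over the 12 M2 libraries Adipoq ranged from 0.08 to 5.74 FPKM, and the other 3 markers were under 1 FPKM in all 12, with Plin1 at 0 in 7 and Cidec in 5 of them. The 5 fibroblast markers, the highest of them Dcn, summed to 125 to 127 FPKM without and 102 to 103 FPKM with DA, and the 4 epithelial markers, mostly Cdh1, to 2.18 to 2.24 and 16.8 to 17.2 FPKM. In M1 WT cells the macrophage sum was 7271 to 7386 FPKM without and 7946 to 8017 FPKM with DA, and that of 7 neutrophil markers 42.6 to 54.5 and 61.96 to 80.6 FPKM. Of the neutrophil markers, S100a8 ranged from 13.8 to 43.4 FPKM over the 12 M1 libraries, and S100a9 from 0.40 to 21.0 FPKM. In DRD5-/- M1 cells the neutrophil sum was lower, 14.6 to 18.2 FPKM without and 17.3 to 20.1 FPKM with DA, so it also differed in the comparison of DA-treated WT with DA-treated DRD5-/- cells. The part of these markers in the members' changes and differences was not tested.

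Without DA, members differed between the genotypes in M2, and none was called in M1. In M1, no member was called between untreated DRD5-/- and untreated WT cells, and 0.936% of all genes were. An unadjusted p under 0.05 (limma) was found for 6 of 33 members and for 2557 of all 10040 genes. In M2, 9 of 36 members were called, 8 lower and 1 higher in DRD5-/-, against 5.51% of all genes in either direction. With the other scaling, 206 genes were higher and 349 lower, in place of 147 and 445.

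The members lower in untreated DRD5-/- M2 cells were 5 enzymes, Stard4, Scd1 and Fads2. Idi1 was at 2.87, 3.53 and 2.84 FPKM in WT and 1.2, 1.12 and 1.64 FPKM in DRD5-/- cells, a difference of −0.82 ± 0.13 log2 (adjusted p = 0.00031, limma). Sqle was at 13.0, 12.8 and 13.0 FPKM in WT and 8.70, 8.77 and 8.72 FPKM in DRD5-/- (−0.52 ± 0.03), and Fdft1, Cyp51 and Sc5d were lower by −0.40 ± 0.05, −0.36 ± 0.03 and −0.28 ± 0.05 log2. Scd1, at 3.54, 3.89 and 3.60 FPKM in DRD5-/-, was lower by −0.72 ± 0.06, with no library overlapping WT. Fads2 (−0.47 ± 0.07) and Stard4 (−0.30 ± 0.05) were also lower, and Nr1h3 was higher, at 26.6, 27.3 and 25.4 FPKM against 18.6, 19.4 and 20.4 FPKM (0.42 ± 0.05). Without untreated WT replicate 2, or without untreated DRD5-/- replicate 1, 5 members were called in place of 9. Stard4, Sc5d, Idi1 and Fads2 lost their calls in 11, 9, 4 and 3 of the 12 fits that left out 1 library. Untreated WT cells are the control both here and in the comparison of DA in WT cells. The fibroblast markers summed to 78.6 to 80.7 FPKM in untreated DRD5-/- M2 cells, below the 125 FPKM of WT, and their part was not tested.

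Levels also differed between the stimuli, which are given side by side without a test. In untreated WT cells, 29 of 36 members had M2 libraries all above the M1 libraries by at least 1.2-fold, and 3 had them below, against 55.8% and 23.1% of all 11148 genes compared. Fasn had a mean of 0.52 FPKM in M1 and 10.9 FPKM in M2, Dhcr7 of 1.98 and 28.3 FPKM, and Scap of 3.01 and 18.6 FPKM. The 3 genes higher in M1 were Scd2 (91.2 against 27.1 FPKM), Abca1 (22.7 against 13.0 FPKM) and Nr1h3 (28.8 against 19.5 FPKM). Mvk, Pmvk, Ggps1 and Srebf1 met neither condition.

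The change with DA was also compared between the stimuli, in WT cells over all 24 libraries. A scaling shared by all libraries of a set then drops out for genes well above 1 FPKM, and only in part for lower ones. Of the 33 members that met the filter under both stimuli, 13 were called, 5 with the more positive change in M2 and 8 with the more negative, against 29.3% and 18.0% of the 9620 genes that met it under both. Fasn and Elovl6, called among all 36, met it only in M2, so their differences are not given as results. All 4 LXR genes were among the 8, at −1.82 ± 0.07 log2 for Abca1, −1.73 ± 0.03 for Abcg1, −1.48 ± 0.06 for Mylip and −0.80 ± 0.07 for Nr1h3, as was Scd1 (−0.51 ± 0.10). The fatty acid genes Scd2 (0.50 ± 0.05) and Acly (0.37 ± 0.05) had the more positive change in M2. The enzymes divided evenly. Sqle (0.67 ± 0.07), Mvk (0.55 ± 0.12) and Hsd17b7 (0.55 ± 0.12 log2) had the more positive change in M2, and Dhcr7 (−0.48 ± 0.08), Mvd (−0.43 ± 0.10) and Msmo1 (−0.33 ± 0.05) the more negative. Msmo1 rose under both stimuli, by less in M2, whereas Dhcr7 fell in M2 and was not called in M1. Of these, Mvd lost its call in 10, Mvk in 6 and Hsd17b7 in 4 of the 24 fits that left out 1 library, and with the other scaling of the libraries Mvk and Hsd17b7 were not called. For Fdps the difference was −0.02 ± 0.09, and for Srebf2 −0.07 ± 0.06 log2, neither called.

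**Figure D5:**
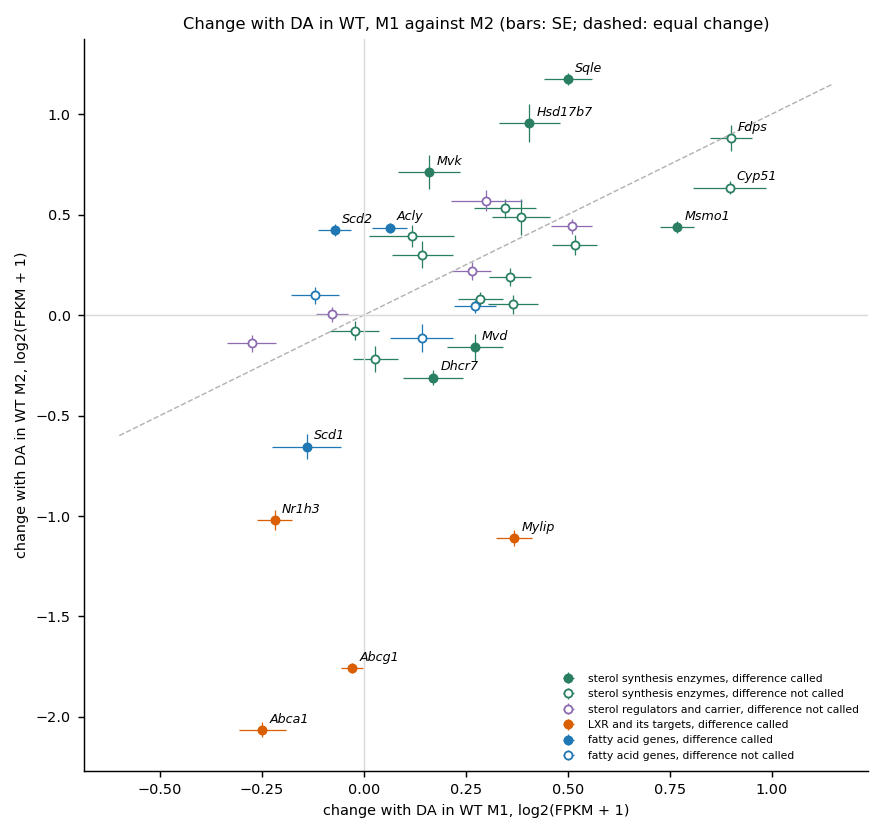
Change with DA in WT M1 (horizontal axis) and WT M2 (vertical axis) on the log2(FPKM + 1) scale, with SE bars, for the 33 members tested under both stimuli; colours mark the class, filled points a called difference between the stimuli, and the dashed line an equal change. The 4 LXR genes lie far below the line, from −1.02 to −2.06 in M2, while Fdps lies near it, at 0.90 in M1 and 0.88 in M2.

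Further genes of the same pathways were counted from 3 lists, of 20, 21 and 21 genes. Of the further sterol synthesis and SREBP genes, 1 of 20 rose with DA in M1 WT cells and none fell, and 8 rose and 2 fell in M2. Over all genes 4.73% rose and 9.6% fell in M1, and 25.9% rose and 20.4% fell in M2, and the counts of all 3 lists stand beside these shares. Lbr, a sterol reductase of the nuclear envelope, rose in M1 from 1.31 ± 0.09 to 2.05 ± 0.09 FPKM (SD, n = 3). In M2, Pdss1, which makes the ubiquinone side chain, rose from 1.44 ± 0.35 to 5.90 ± 0.78 FPKM, the membrane protein Tmem97 rose from 19.8 ± 0.74 to 36.6 ± 1.31 FPKM, and Lpin1, a phosphatidate phosphatase, fell from 12.2 ± 0.17 to 2.91 ± 0.23 FPKM.

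Of the further LXR, cholesterol storage and export genes, 3 rose and 1 fell of 19 tested in M1, and 4 rose and 9 fell of 21 in M2. Ch25h, a hydroxylase that makes an oxysterol from cholesterol, was opposite in the stimuli, falling from 115 ± 2.2 to 51.1 ± 3.1 FPKM in M1 and rising from 4.21 ± 0.17 to 18.4 ± 1.4 FPKM in M2. The lipid receptor Cd36 rose in M1 from 122 ± 1.0 to 228 ± 6.5 FPKM, and the lipase Lpl from 209.5 ± 4.1 to 376 ± 11 FPKM. In M2, the sterol hydroxylase Cyp27a1 fell from 19.3 ± 0.76 to 5.54 ± 0.33 FPKM and the transporter Abca9 from 3.71 ± 0.25 to 0.697 ± 0.095 FPKM. Of the further fatty acid genes, 1 rose and 2 fell of 14 tested in M1, and 3 rose and 2 fell of 17 in M2. Me1, which supplies NADPH for fatty acid synthesis, rose under both, by 0.49 ± 0.06 log2 in M1 and 0.32 ± 0.06 in M2.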

How the data were processed

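The authors deposited 1 table of FPKM per library, from BGISEQ-500 reads aligned with HISAT2 per the methods, while the submitters' processing notes name Bowtie2 2.2.5 and GRCm38.p6. Read counts were not used here and depth is unknown. Groups and replicate numbers were taken from the labels. For each stimulus, limma 3.58.1 (R 4.3.3) with an intensity trend was fitted to log2(FPKM + 1) as 4 group means, on genes at 1 FPKM or more in at least 3 of 12 libraries. A gene was called at a Benjamini-Hochberg adjusted p under 0.001 and 1.2-fold, after the study's thresholds. Fold changes on this scale understate those of low genes. The procedure was tested on simulated data. Any of the 36 members could be named, and of each further list the 3 called genes with the largest change with DA in WT; 1 gene of these lists is not reported here. The members and lists were chosen with earlier results of these data known. Replicate numbers were not used as a block, because the study's methods use none. A second row with the symbol Plin2 was left out of the lists. Alternatives were another pseudocount, filter, scaling, trend, threshold or block, and leaving out each library.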

Additional observations from a re-analysis of the deposited data

Results flagged for a closer look

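These members changed with DA by different amounts in the 2 genotypes, or under the 2 stimuli, by a test of the difference itself (limma, Benjamini-Hochberg adjusted p under 0.001 and at least 1.2-fold). Values are differences of log2 changes, WT minus DRD5-/- or M2 minus M1.

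In M1 BMDMs, the change with DA was larger in WT than in DRD5-/- for 7 members, against 3.2% of all genes: Cyp51 by 0.92, Fdps by 0.91, Msmo1 by 0.81, Fdft1 by 0.59, Sqle by 0.49, Srebf2 by 0.45 and Mylip by 0.36. Their adjusted p-values ranged from 2.3e-07 for Msmo1 to 0.00046 for Mylip.

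In M2 BMDMs, 15 members had the more positive change in WT, against 22.8% of all genes. Among the enzymes these were Sqle (1.01), Fdps (0.97), Hsd17b7 (0.76), Mvk (0.74), Cyp51 (0.66), Nsdhl (0.63), Acat2 (0.47), Msmo1 (0.46) and Fdft1 (0.33). The call of Fdft1 was lost in 9 of the 12 fits that left out 1 library. The regulators Stard4 (0.43) and Srebf2 (0.41) followed, with the fatty acid genes Fasn (0.83), Elovl6 (0.57), Scd2 (0.42) and Acly (0.39). The change was more negative in WT for 6 members, against 20.4% of all genes: Abca1 (−2.35), Abcg1 (−1.74), Mylip (−1.35), Scd1 (−0.94), Nr1h3 (−0.70) and Ggps1 (−0.34).

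Between the stimuli in WT cells, among members that met the filter on low values under both, the change was more positive in M2 for Sqle (0.67), Mvk (0.55), Hsd17b7 (0.55), Scd2 (0.50) and Acly (0.37). It was more negative in M2 for Abca1 (−1.82), Abcg1 (−1.73), Mylip (−1.48), Nr1h3 (−0.80), Scd1 (−0.51), Dhcr7 (−0.48), Mvd (−0.43) and Msmo1 (−0.33). Of the 9620 genes that met the filter under both, 29.3% had the more positive and 18.0% the more negative change. Mylip is the member called in opposite directions under the 2 stimuli.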

How the results depend on the processing

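No called value changed direction under any alternative run. Over members and comparisons, 2223 values kept their side of the threshold under the alternatives that kept all libraries, 55 lost a call and 41 gained one, and with 1 library left out 4843 kept it, 149 lost and 12 gained one. Without the filter on low values, the members called fell from 14 to 8 for DA in M1 WT cells, from 7 to 3 for the M1 difference between genotypes, from 2 to 1 for DA in M2 DRD5-/- cells and from 9 to 5 for untreated M2 genotypes, and the number of genes tested rose from 10040 to 17386 in M1. At an adjusted p under 0.05 in place of 0.001, 16 members were called for the M1 difference and 4 for DA in M2 DRD5-/- cells. Without the intensity trend, 1 member was called for DA in M2 DRD5-/- cells. At 2-fold in place of 1.2-fold, 13 members in place of 32 differed in level between M1 and M2. The replicate block gave 9 members in place of 14 for DA in M1 WT cells. Residuals of same-numbered libraries had a mean correlation of −0.021 in M1 and −0.016 in M2, with 1 of 18 pairs over 0.1 in each. The highest pair was at 0.103 in M1 and 0.179 in M2. These correlations cannot show whether same-numbered libraries shared a mouse, culture or batch.

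With 1 library left out, members called ranged from 8 to 14 for DA in M1 WT and from 22 to 24 in M2 WT, stayed at 0 in M1 DRD5-/- and were 1 to 2 in M2 DRD5-/-. They ranged from 11 to 15 and 22 to 23 for DA-treated WT against DRD5-/- in M1 and M2, stayed at 0 and ranged from 5 to 9 for untreated cells, and from 4 to 8 and 19 to 21 for the difference between genotypes. They ranged from 12 to 16 of all 36 members for the difference between stimuli, which called 15, or 13 where the filter had to be met under both stimuli (an alternative chosen after seeing the data), and from 31 to 32 for the levels. For DA in M2 DRD5-/- cells, 1 member was called without untreated replicate 2 or 3 or without DA-treated replicate 1 or 3. Depth is unknown, so the precision of genes near 1 FPKM, such as Idi1, Elovl6 and Hsd17b7, rests on the spread of 3 libraries.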

Other observations

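The further pathway lists were also compared where the receptor was absent. In DRD5-/- M2 BMDMs, Por, the reductase that passes electrons to Cyp51 and other cytochromes, rose with DA from 92.0 ± 1.2 to 126 ± 5.0 FPKM (SD, n = 3), and Me1 from 1.77 ± 0.05 to 2.83 ± 0.03 FPKM. These were the only called genes of the 3 lists in that comparison (1 of 20, 0 of 21 and 1 of 17 tested), against 4.02% of all genes. In DRD5-/- M1 cells none was called, and 0.0% of all genes were. Por was named after its value was seen.

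Between untreated genotypes in M2, Me1 was lower in DRD5-/- (1.77 ± 0.05 against 2.74 ± 0.29 FPKM in WT), as was the acyl-CoA synthetase Acsl4, at 17.8 ± 0.7 against 21.6 ± 0.8 FPKM. Lpl was higher in DRD5-/- (1269 ± 11 against 973 ± 21 FPKM), and so was the LXR partner Rxra (15.6 ± 0.18 against 12.7 ± 0.02 FPKM). Acsl4 and Rxra were likewise named after their values were seen.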
